A study of Mus musculus with 29 samples.

Results

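The nuclear genes of the mitochondrial respiratory chain and of ATP synthase were followed in mouse liver. They were taken by gene name, as every non-control spot whose name began with Nduf, Uqcr, Atp5, Cox4, Cox5, Cox6, Cox7 or Cox8, or was Sdha, Sdhb, Sdhc, Sdhd or Cyc1. The names gave 91 genes of 31693 on the array, measured by 122 of 39429 probes and 131 of 43020 spots. By role they were 36 subunits of complex I, 4 of complex II, 9 of complex III, 11 of complex IV and 15 of ATP synthase. Another 4 were the complex I assembly factors named Ndufaf. A further 8 were complex IV isoforms known mainly from other tissues. The last 4, Atp5s, Atp5sl, Cox4nb and Cox7a2l, were set apart as related by name, although Cox7a2l is also a factor of supercomplexes. The names used here are those on the array; Atp5f1 is now called Atp5pb, Atp5s Dmac2l, Atp5sl Dmac2 and Cox4nb Emc8.

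Livers came from male C57BL/6N mice in 4 diet groups, and all of them, controls included, ate a corn oil-based high-fat diet (cHF) for 7 weeks from an age of 3 months. The cHF+PC+R group (8 livers) received omega-3 phospholipids and rosiglitazone together, the cHF+PC group (8 livers) the phospholipids alone and the cHF+R group (6 livers) a low dose of rosiglitazone alone. The cHF group (7 livers) received neither. The phospholipids, rich in phosphatidylcholine and carrying EPA and DHA, took the place of about 7% of the dietary lipid, and rosiglitazone is a PPAR-gamma agonist used against insulin resistance. Each liver was labelled with Cy5 and set on 1 array against a Cy3-labelled pool of all livers, so that a log2 ratio of 0 means the level of the pool. No lean or chow-fed group was analysed here, so no value below compares with a healthy liver.

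Complexes I to IV pass electrons from NADH and succinate to oxygen. Complexes I, III and IV pump protons across the inner mitochondrial membrane, and ATP synthase, complex V, uses the returning protons to make ATP. Hepatocytes are rich in mitochondria and use the chain to burn the fatty acids that reach the liver. Most subunits are encoded in the nucleus and are transcribed together with help from nuclear respiratory factor 1 (NRF1), from ETS-family factors such as GABP and from the PGC-1 coactivators. Some complex IV subunits exist as isoforms: Cox7a1 and Cox8b are the forms of heart, skeletal muscle and brown fat, Cox4i2 is known from lung and Cox6b2 from testis.

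Promoter sequence was available for 74 of the 91 genes in RefSeq annotation of GRCm38.p6, in 80 windows of 250 bases before a gene's start. The NRF1 motif, GCGCA and GCGC with any base between them, was searched on both strands, as was the ETS motif CCGGAAG. The NRF1 motif stood in 14 of 68 windows of complex I to V subunits (20.6%), in 0 of 4 windows of the other-tissue isoforms and in 3.74% of all 32851 windows. The ETS motif stood in 12 of the 68 subunit windows (17.6%), in 0 of the 4 isoform windows and in 6.91% of all. The motif GGGCGG of SP1 was as frequent in subunit windows (32.4%) as in all windows (32.7%), and so was the nuclear receptor half-site AGGTCA (14.7% against 14%). The median GC content was 57% in subunit windows and 50.8% in isoform windows, against 52.4% in all.
Windows are shown for 3 genes with an NRF1 match, Ndufa8 and Ndufaf4 because they fell in a comparison below and Cox6a1 because it held 2 NRF1 matches and 1 ETS match, and for the isoforms Cox7a1 and Cox8b, which had neither. Capitals mark the NRF1 and ETS matches, on either strand. A match is a string of letters and says nothing of a factor's presence.
Ndufa8 lies at chr2:36049339-36049588 on the minus strand.
Ndufa8: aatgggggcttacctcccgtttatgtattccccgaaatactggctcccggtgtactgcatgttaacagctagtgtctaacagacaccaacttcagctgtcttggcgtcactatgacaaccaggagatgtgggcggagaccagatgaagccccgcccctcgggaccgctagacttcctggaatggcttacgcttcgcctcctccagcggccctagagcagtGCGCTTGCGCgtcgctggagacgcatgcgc
Ndufaf4 lies at chr4:24897833-24898082 on the plus strand.
Ndufaf4: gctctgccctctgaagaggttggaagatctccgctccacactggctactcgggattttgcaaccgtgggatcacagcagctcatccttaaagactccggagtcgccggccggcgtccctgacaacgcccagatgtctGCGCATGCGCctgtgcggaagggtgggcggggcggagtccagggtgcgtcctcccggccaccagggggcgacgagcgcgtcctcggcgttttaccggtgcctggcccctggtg
Cox6a1 lies at chr5:115348959-115349208 on the minus strand.
Cox6a1: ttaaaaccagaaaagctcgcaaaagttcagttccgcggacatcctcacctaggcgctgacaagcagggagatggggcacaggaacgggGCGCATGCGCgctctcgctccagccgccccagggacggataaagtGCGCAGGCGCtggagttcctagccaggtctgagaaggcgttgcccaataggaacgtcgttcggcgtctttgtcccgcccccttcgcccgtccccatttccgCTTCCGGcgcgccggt
Cox7a1 lies at chr7:30183921-30184170 on the plus strand.
Cox7a1: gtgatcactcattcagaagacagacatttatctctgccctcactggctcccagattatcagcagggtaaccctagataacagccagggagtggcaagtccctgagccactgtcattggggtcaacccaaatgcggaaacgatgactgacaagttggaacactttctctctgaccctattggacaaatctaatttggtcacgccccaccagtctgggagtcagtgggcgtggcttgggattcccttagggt
Cox8b lies at chr7:140900447-140900696 on the minus strand.
Cox8b: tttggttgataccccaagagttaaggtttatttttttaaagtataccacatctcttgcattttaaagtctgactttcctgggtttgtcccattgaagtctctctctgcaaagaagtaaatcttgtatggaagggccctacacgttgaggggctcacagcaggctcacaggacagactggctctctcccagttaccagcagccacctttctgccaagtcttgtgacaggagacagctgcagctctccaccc

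These genes were among the brightest on the arrays: 66 of the 86 that could be tested (76.7%) lay in the brightest 10% of the 19454 genes tested. Their livers also varied little within a group, with a median residual SD of 0.098 on the log2 scale against 0.111 over all genes tested. Ndufb5, a membrane-arm subunit of complex I, had the lowest SD (0.054). The highest were those of 3 isoforms of other tissues, Cox8b (0.244), Cox7a1 (0.228) and Cox6a2 (0.205). The genes not tested were Ndufa12, Ndufs7 and Sdhd, whose bright spots were marked as outliers on 10, 18 and 20 of the 29 arrays, and the testis isoforms Cox7b2 and Cox8c, well above background on 0 and 1 arrays. Cox8b was well above background on 12 of 29 arrays, namely 6 of 8 cHF+PC+R, 0 of 8 cHF+PC, 5 of 6 cHF+R and 1 of 7 cHF arrays, so it passed the filter through the groups where it is high. Its values in cHF+PC livers are only bounds and no difference against them is given for it, though it stays among the 86 genes in the counts.

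Between 55.02% and 62.5% of spots were well above background on 28 arrays, and 80.8% on that of cHF replicate 4; without it the counts of genes called here were the same in all 6 comparisons, though Ndufa4l2 missed the threshold in cHF+PC+R against cHF and another gene passed. The lowest correlation between arrays was -0.305, between cHF+R replicate 5 and cHF+PC replicate 6. The labels put the liver in Cy5 on every array, so the direction of the ratios was kept. All 10 hepatocyte markers were tested and were well above background on at least 24 of 29 arrays. In whole liver, fewer cells of a type and less RNA per cell cannot be told apart. A gene was called where limma's adjusted p over all 19454 genes was below 0.05. The calls depend on the normalization: after median centring in place of loess, 0 of these genes were called in any of the 6 comparisons, as 10, 81, 82, 53, 2 and 0 of all genes were, against 765, 607, 1850, 1389, 26 and 0 with loess.

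With phospholipids alone, in cHF+PC against cHF livers, 2 of 86 genes were higher and 1 was lower. That is near the share of all genes, of which 3.93% were called, 1.82% higher and 2.11% lower. Ndufab1, the mitochondrial acyl carrier protein that is also a subunit of complex I, had log2 ratios from -0.51 to 0.03 (median -0.12) in cHF+PC livers and from 0.05 to 0.29 (median 0.14) in cHF livers. Every cHF+PC liver thus lay below every cHF liver. Its log2 change was -0.33 ± 0.075 (SE; 95% interval -0.49 to -0.18; adjusted p = 0.00884), with the same direction on 7 of 7 slides that held both groups.

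Atp5s, known as coupling factor B and not counted among the subunits of ATP synthase, had ratios from -0.04 to 0.28 (median 0.04) in cHF+PC livers and from -0.32 to -0.003 (median -0.12) in cHF livers. The groups overlapped only at their edges, and the change was 0.23 ± 0.053 (adjusted p = 0.0134). Uqcrc1, a core protein of complex III, lay between -0.04 and 0.11 (median 0.04) in cHF+PC livers and between -0.24 and -0.07 (median -0.09) in cHF livers. Those ranges did not meet, but the change was small, 0.16 ± 0.045 (adjusted p = 0.0399). With Ndufab1 and Uqcrc1, 2 of 86 genes did not overlap between these groups, against 1.42% of all genes. The Uqcrc1 call was lost without any 1 of cHF replicates 3, 5 and 7 and cHF+PC replicates 3, 4, 5, 7 and 8 (changes of 0.14 to 0.16, adjusted p = 0.0552 to 0.0981), without the filter on dim probes, and with a block for slides or for replicate numbers (adjusted p = 0.0596, 0.0696 and 0.074).

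Of the 10 hepatocyte markers only Ttr was called in this comparison (-0.50, lower), while 6 had positive changes and the list median was 0.06. Of the 6 stellate cell markers only Lrat was called (-0.49, lower), with 5 negative changes and a list median of -0.18. The part of these cells in the values above was not tested.

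The other respiratory chain genes did not pass. The median change was -0.03 over the 34 complex I subunits, 0.12 over the 3 of complex II, -0.01 over the 9 of complex III, -0.01 over the 11 of complex IV and 0.04 over the 15 of ATP synthase, and 0.001 over all genes tested. Among subunits often used as markers of their complex, Ndufs1 stood at 0.11 ± 0.048, Ndufv1 at -0.03 ± 0.052 and Ndufb8 at -0.03 ± 0.050, all of complex I. Succinate dehydrogenase, which also serves the TCA cycle, had values of 0.14 ± 0.067 for Sdha and 0.12 ± 0.062 for Sdhb. Atp5a1 and Atp5b, subunits of the catalytic part of ATP synthase, stood at 0.12 ± 0.046 and 0.07 ± 0.069. Their fits held 6 of the 7 cHF livers, and Sdha lacked 1 cHF+PC liver. The adjusted p of these 7 genes lay between 0.145 and 0.833.

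**Figure D1:**
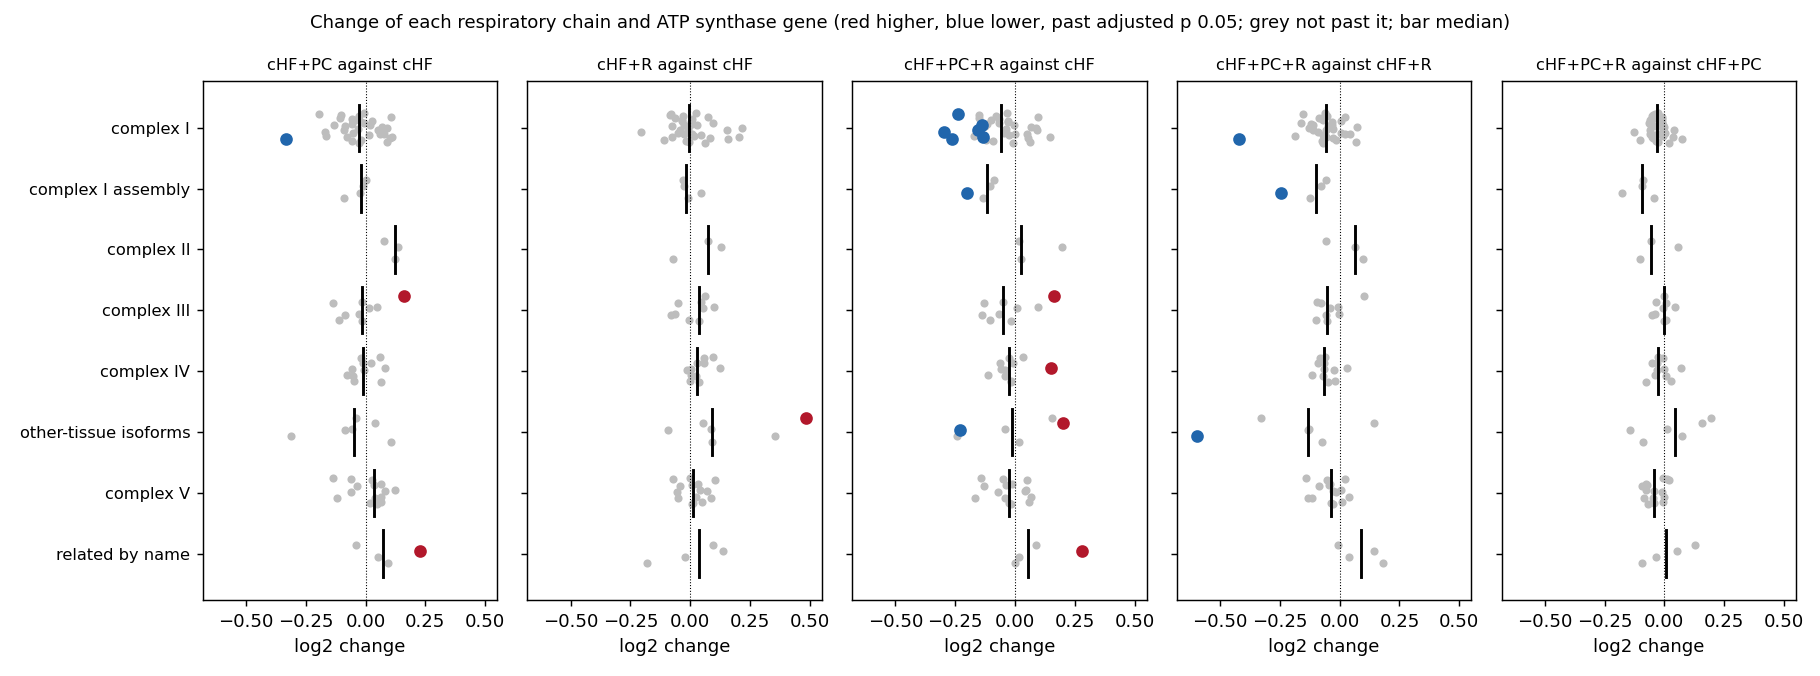
Log2 change of each of the 86 tested genes (points), by complex, in 5 comparisons; red points are higher and blue points lower at an adjusted p below 0.05, grey points did not pass, and black bars are medians. Most points lie within 0.1 of 0, and 6 of the 34 complex I points are blue in cHF+PC+R against cHF.

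Rosiglitazone alone gave 1 call, of a gene that was near background in the controls. In cHF+R against cHF livers 1 of 86 was higher and 0 were lower, against 3.12% of all genes called, 2.03% higher and 1.09% lower. That gene was Cox8b, whose product is the complex IV subunit of heart, muscle and brown fat. Its log2 ratio was between -0.08 and 1.02 (median 0.32) in cHF+R livers and between -0.38 and 0.0003 (median -0.03) in cHF livers. Only 1 of the 7 cHF arrays had Cox8b well above background, and the groups overlapped. The fitted change was 0.48 ± 0.128 (adjusted p = 0.0308), positive on 4 of 5 slides, and it was 2.03 with the scanner's processed signals. Since the gene was tested because of the groups where it is high, and cHF was mostly at background, neither its size nor the call is settled. None of the other 85 genes was called. Of the 10 hepatocyte markers 1 was called, lower, with 9 negative changes and a list median of -0.13. Of the 6 Kupffer cell markers 6 had positive changes (list median 0.14) and 0 were called. Of the 6 stellate cell markers 5 had positive changes (list median 0.18) and 0 were called. Of the 3 red cell markers 1 was called, lower (list median -0.25). The part of these cells in the values above was not tested.

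The Cox8b call was lost without any 1 of cHF replicates 3 and 5 and cHF+R replicates 1, 2 and 3 (changes of 0.35 to 0.47, adjusted p = 0.0636 to 0.1). Cox7a1, an isoform of another subunit from the same tissues, lay between 0.04 and 0.97 (median 0.34) in cHF+R livers and between -0.16 and 0.35 (median 0.04) in cHF livers. The change of 0.36 ± 0.120 did not pass (adjusted p = 0.112), and it passed without cHF+R replicate 6 (0.43, adjusted p = 0.0393). Ndufa13, a complex I subunit also known as GRIM-19, had a change of -0.21 ± 0.061 (adjusted p = 0.0587) and passed without any 1 of cHF replicate 2, cHF+R replicate 1, and cHF+PC replicates 2 and 6 (-0.21 to -0.24, adjusted p = 0.034 to 0.0419).

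For the subunits of the complexes themselves, the medians in cHF+R against cHF livers were -0.005 in complex I, 0.08 in complex II, 0.04 in complex III, 0.03 in complex IV and 0.01 in ATP synthase, and 0.01 over all genes tested. Cox4i1, the main isoform of its complex IV subunit, had a change of 0.12 ± 0.045 (adjusted p = 0.159). Sdha stood at 0.13 ± 0.069, Atp5a1 at 0.04 ± 0.049 and Ndufs1 at 0.07 ± 0.051, none of them called. After median centring in place of loess the median of the 86 genes was 0.34 and that of all genes 0.15, against 0.01 for both with loess. The complex I median then stood 0.19 above that of all genes, and 0.02 below it with loess (-0.02).

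The combined diet gave the largest number of calls against cHF. In cHF+PC+R livers 4 of 86 genes were higher and 8 lower, where 9.51% of all genes were called, 4.74% higher and 4.77% lower. All 6 called complex I subunits were lower, as was the complex I assembly factor Ndufaf4. Among the 6 was Ndufv3, whose other probe was called higher in the same comparison, as given further below. Of the 34 complex I subunits 26 had negative changes, with a median of -0.06 against 0.01 over all genes; after median centring the sign turned, with 10 negative and a median of 0.055 against 0.072 over all genes. With the other 9 processing settings 25 to 27 were negative. The 3 comparisons against cHF share the cHF livers.

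Ndufa13 had the largest fall. Its log2 ratio was between -0.28 and -0.01 (median -0.12) in cHF+PC+R livers and between 0.004 and 0.37 (median 0.14) in cHF livers. The groups did not overlap, and the change was -0.30 ± 0.057 (adjusted p = 0.0012; 7 of 7 slides). Ndufa8, a subunit with twin cysteine motifs on the side of the intermembrane space, lay between -0.27 and 0.04 (median -0.14) in cHF+PC+R livers and between -0.05 and 0.21 (median 0.13) in cHF livers. Ranges overlapped a little, and the change was -0.24 ± 0.062 (adjusted p = 0.0138; 7 of 7 slides). Ndufab1 was between -0.29 and 0.12 (median -0.13) in cHF+PC+R livers, and its change was -0.26 ± 0.075 (adjusted p = 0.0247). That call was lost without cHF replicate 5, or cHF+PC+R replicate 2 or 4 (-0.23 to -0.25, adjusted p = 0.05 to 0.0598), and with the slide as a block (-0.24, adjusted p = 0.059).

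Ndufaf4, which acts early in the building of complex I and is not part of the finished enzyme, lay between -0.37 and -0.08 (median -0.25) in cHF+PC+R livers and between -0.19 and 0.09 (median -0.05) in cHF livers. The lowest cHF livers reached into the combined group, and the change was -0.20 ± 0.052 (adjusted p = 0.0134; 7 of 7 slides). A second Ndufaf4 probe gave -0.08 (adjusted p = 0.555 over all probes), and the mean of both probes -0.14 (adjusted p = 0.137), so the call rests on the brighter probe. The other 3 assembly factors, Ndufaf1, Ndufaf2 and Ndufaf3, had negative changes that did not pass, the nearest being Ndufaf2 (-0.13 ± 0.044, adjusted p = 0.0547).

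Falls of the remaining complex I subunits were small. Ndufs8, a core subunit that carries iron-sulfur clusters, was between -0.15 and 0.18 (median 0.05) in cHF+PC+R livers and between 0.10 and 0.28 (median 0.20) in cHF livers, a change of -0.15 ± 0.045 (adjusted p = 0.0284). The X-linked Ndufa1 was between -0.08 and 0.10 (median -0.02) in 7 cHF+PC+R livers and between 0.06 and 0.30 (median 0.09) in cHF livers, a change of -0.14 ± 0.044 (adjusted p = 0.0416). The groups overlapped at both genes. Neither call held throughout. Ndufs8 did not pass without cHF replicate 3 or 7, or cHF+PC+R replicate 3 or 4 (-0.13 to -0.15, adjusted p = 0.0517 to 0.0686), nor with slides as a block (-0.15, adjusted p = 0.0667). Ndufa1 did not pass without cHF replicate 3, 5 or 7, or cHF+PC+R replicate 2, 3, 4 or 7 (-0.11 to -0.14, adjusted p = 0.0572 to 0.105). It also missed the threshold without background subtraction, with the processed signals, without the filter, and with slides or replicate numbers as a block (-0.13 to -0.15, adjusted p = 0.0518 to 0.0844).

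Of the rises, that of Atp5s was the largest. It lay between 0.03 and 0.25 (median 0.09) in cHF+PC+R livers, above every cHF liver, and the change was 0.28 ± 0.053 (adjusted p = 0.0011; 7 of 7 slides). Uqcrc1 lay between -0.06 and 0.17 (median 0.04) in cHF+PC+R livers, again above every cHF liver, with a change of 0.16 ± 0.045 (adjusted p = 0.0215). Leaving out cHF replicate 3 or 7 ended that call (0.14 each, adjusted p = 0.0559 and 0.0538), as did the deposited values (0.14, adjusted p = 0.0884). With Atp5s, Ndufa13 and Uqcrc1, 3 of 86 genes did not overlap between these groups, against 2.46% of all genes. Dim probes measured Atp5s and, among the calls given next, Cox6b2 and Ndufa4l2. Their mean log2 intensities were 7.90, 7.73 and 8.40, against a median of 8.77 over all genes tested and 14.4 over the 86 genes. Each was well above background on 29 of 29 arrays.

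Cox4i1 was between -0.16 and 0.07 (median 0.0001) in cHF+PC+R livers and between -0.35 and -0.05 (median -0.13) in cHF livers. The groups overlapped, and the change was 0.15 ± 0.042 (adjusted p = 0.0215). It did not pass when cHF replicate 3 (0.12, adjusted p = 0.0628) or 6 (0.14, adjusted p = 0.0514) was left out, nor in the deposited values (0.11, adjusted p = 0.115), and it was -0.0095 with Cy5 alone. It was the only one of 11 complex IV subunits called, and 9 of the 11 had negative changes. Cox6b2, the testis form of a complex IV subunit, was between -0.08 and 0.28 (median 0.15) in cHF+PC+R livers and between -0.17 and 0.04 (median -0.06) in cHF livers. Apart from cHF+PC+R replicate 2, the combined group lay above all cHF livers, and the change was 0.20 ± 0.053 (adjusted p = 0.0163). Ndufa4l2, a paralogue of the complex IV subunit Ndufa4 known for its response to low oxygen, was between -0.37 and 0.21 (median -0.14) in cHF+PC+R livers and between -0.07 and 0.27 (median 0.12) in cHF livers. Its wide ranges overlapped. The change was -0.23 ± 0.069 (adjusted p = 0.0349). It missed the threshold without cHF replicate 2, 3, 4 or 6, or cHF+PC+R replicate 1, 3 or 4 (-0.19 to -0.22, adjusted p = 0.06 to 0.0893), and with the slide as a block (-0.20, adjusted p = 0.0632).

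Sdha came close to the threshold with a change of 0.19 ± 0.064 (adjusted p = 0.0537). It passed when any 1 of cHF+R replicates 3 and 6, cHF+PC replicates 2 and 4, and cHF+PC+R replicates 2 and 7 was left out (0.19 to 0.22, adjusted p = 0.0254 to 0.0489). No ATP synthase subunit was called: 10 of the 15 had negative changes, and the lowest p was that of Atp5l, a subunit of the membrane part (-0.17 ± 0.061, adjusted p = 0.0879), in a fit with 7 cHF+PC+R and 6 cHF livers, which passed without cHF replicate 2 (-0.20, adjusted p = 0.0465) and with the replicate number as a block (-0.20, adjusted p = 0.0469). Other Atp5l probes showed the same sign, and 1 of them passed over all probes (-0.21, adjusted p = 0.0248). With quantile-normalized Cy5 alone, 0 genes were higher and 1, Ndufaf4, lower. Markers of the liver's cells moved in this comparison too. Of 10 hepatocyte genes Cps1 was higher (0.53) and Ttr (-0.59) and Serpina1a (-0.30) were lower, with a list median of 0.11. Of 6 stellate cell genes Lrat was lower (-0.34, list median 0.02), and of 3 red cell genes Alas2 was lower (-0.47, list median -0.03). Their part in the values above was not tested. In the authors' deposited values 2 were higher and 8 lower, and over all genes 631 of 2066 calls were rises, against 923 of 1850 with the ratios.

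**Figure D2:**
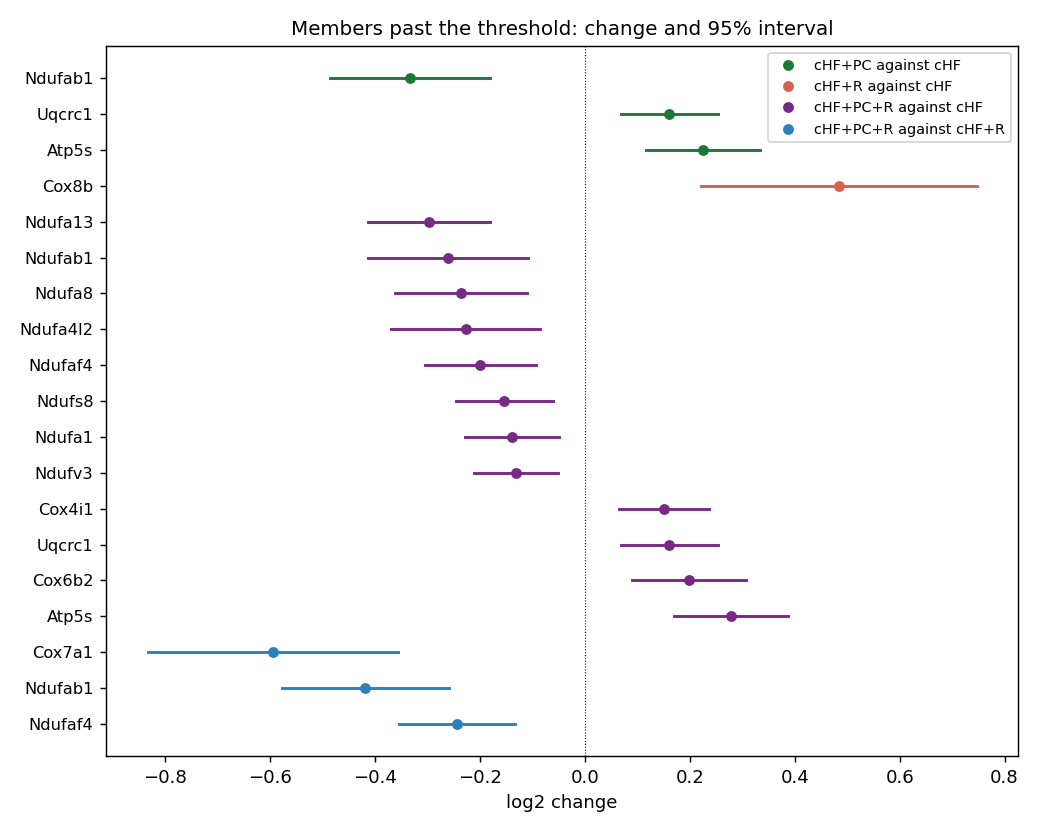
Log2 change (points) and 95% interval (bars) of the genes past the threshold, in 4 colours for 4 comparisons. The 8 falls and 4 rises of cHF+PC+R against cHF are all within 0.3 of 0, and the widest intervals are those of Cox7a1 and Cox8b.

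Adding phospholipids to rosiglitazone gave the largest differences. In cHF+PC+R against cHF+R livers 0 of 86 genes were higher and 3 lower, where 7.14% of all genes were called, 3.31% higher and 3.83% lower. Cox7a1 was between -0.42 and 0.16 (median -0.20) in cHF+PC+R livers and between 0.04 and 0.97 (median 0.34) in cHF+R livers. Only the upper cHF+PC+R livers reached the lower cHF+R livers. The change was -0.60 ± 0.116 (95% interval -0.83 to -0.36, 1.51-fold; adjusted p = 0.00178), negative on 6 of 6 slides. The probe of Cox7a1 lies at chr7:30970337-30970948 in build mm9, as the files give it.

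Ndufab1 was between -0.29 and 0.12 (median -0.13) in cHF+PC+R livers and between 0.06 and 0.55 (median 0.32) in cHF+R livers. A single cHF+PC+R liver reached above the lowest cHF+R liver, and the change was -0.42 ± 0.078 (95% interval -0.58 to -0.26; adjusted p = 0.00111; 6 of 6 slides). Ndufaf4 was between -0.37 and -0.08 (median -0.25) in cHF+PC+R livers and between -0.11 and 0.14 (median 0.03) in cHF+R livers. The ranges met at their edges, and the change was -0.24 ± 0.054 (adjusted p = 0.0056; 6 of 6 slides), against -0.13 (adjusted p = 0.339) with its other probe. All 3 calls held without any 1 of the 29 arrays, and 3 held with 7 of the 10 other settings; scaling between arrays and median centring ended all 3, and the mean of both probes ended that of Ndufaf4 (-0.19, adjusted p = 0.0618).

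Changes of the other genes were small. The median change was -0.06 over the 86 genes and -0.005 over all genes, and 67 of the 86 had negative changes, as had 10190 of all 19454 genes. Negative were 27 of 34 in complex I, 8 of 9 in complex III, 10 of 11 in complex IV and 11 of 15 in ATP synthase, but only 1 of 3 in complex II and 1 of the 4 genes related by name. After median centring all 34 complex I subunits were negative with a median of -0.28, and the median over all genes was -0.06. Cox8b had a change of -0.33 ± 0.125 (adjusted p = 0.107), which passed without cHF+R replicate 6 (-0.42, adjusted p = 0.0276), without background subtraction (-0.51, adjusted p = 0.0182) and in the authors' deposited values (-0.75, adjusted p = 0.026). Cox6b2 had 0.15 ± 0.055 (adjusted p = 0.108) and passed without cHF+PC+R replicate 2 (0.18, adjusted p = 0.0443). Without cHF+R replicate 6, 8 genes were lower. Over all genes 644 of 1389 calls were rises, against 7 of 53 after median centring and 21 of 74 after scaling between arrays. Of the 10 hepatocyte markers Cps1 (0.56) and Tdo2 (0.21) were higher, 8 had positive changes and the list median was 0.17. Of the 6 stellate cell markers Lrat was lower (-0.58), with 4 negative changes and a list median of -0.19. The part of these cells in the values above was not tested.

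Adding rosiglitazone to phospholipids changed none of these genes past the threshold: in cHF+PC+R against cHF+PC livers 0 of 86 were called by limma, where 0.134% of all genes were, 0.118% higher and 0.0154% lower, and 7 had an unadjusted p below 0.05, as did 1661 of all 19454 genes. The smallest p was that of Ndufaf4 (-0.18 ± 0.050, adjusted p = 0.192). The median was -0.03, and 64 of 86 genes had negative changes, but the sign of the median turned after median centring (0.08, with 0.08 over all genes too). For Cox7a1 the change was 0.07 ± 0.108, for Ndufab1 0.07 ± 0.072 and for Uqcrc1 0.0003 ± 0.044. The 95% interval lay within 0.5 of 0 for all 86 genes and within 0.3 for 85.

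Whether the phospholipids acted differently with and without rosiglitazone was tested as an interaction, the change in cHF+PC+R against cHF+R minus the change in cHF+PC against cHF. By limma 0 of 86 genes passed, as 0 of all genes (0%) did, and 3 of the 86 had an unadjusted p below 0.05, against 1290 of all. These 3 were Ndufaf4 (-0.22 ± 0.075, adjusted p = 0.652), Sdhc (-0.13 ± 0.064, adjusted p = 0.738) and Ndufc1, and Cox7a1 had -0.28 ± 0.161 (adjusted p = 0.786). So the calls of 1 comparison that are missing from another are not shown to differ.

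**Figure D3:**
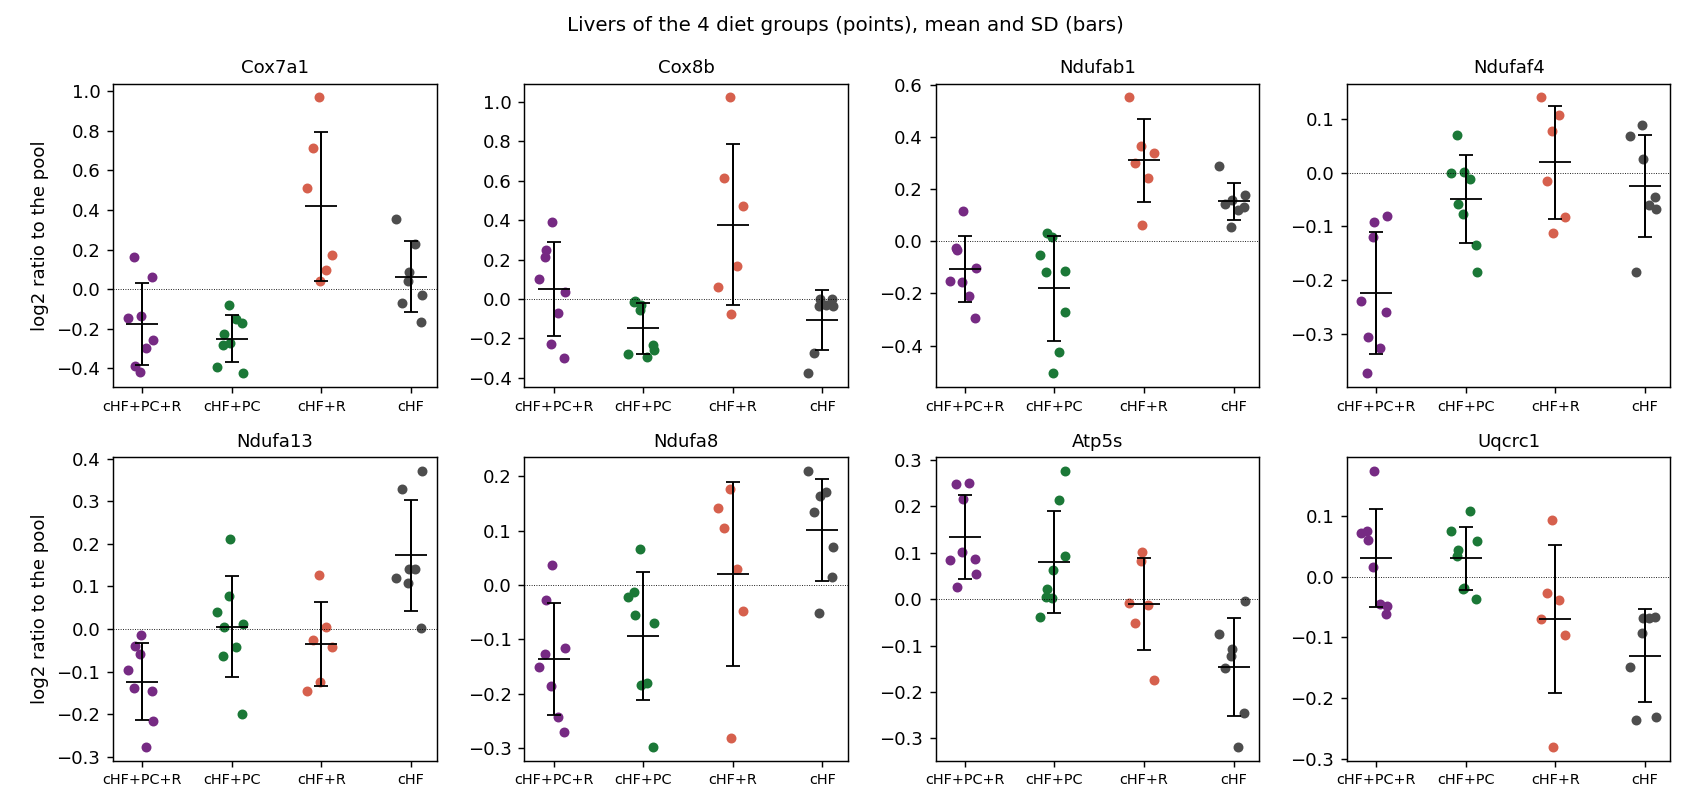
Log2 ratio to the pool of 8 genes in each liver (points) of the 4 diet groups, with mean and SD (bars). Cox7a1 and Ndufab1 lie highest in cHF+R livers, Ndufaf4 and Ndufa13 lowest in cHF+PC+R livers, and Atp5s and Uqcrc1 lowest in cHF livers.

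The order of the group medians differed between the genes. Cox7a1 was highest in cHF+R livers and lowest in cHF+PC livers, and its cHF+PC+R and cHF+PC medians (-0.20 and -0.25) differed by less than the SD between livers of either group (0.207 and 0.118). Ndufab1 was also highest in cHF+R livers, and its cHF+PC+R and cHF+PC medians (-0.13 and -0.12) differed by less than their SDs (0.127 and 0.201). Ndufaf4 had its lowest median in cHF+PC+R livers (-0.25), although the difference from cHF+PC did not pass, and its cHF+PC, cHF+R and cHF medians (-0.03, 0.03 and -0.05) lay within their SDs of 0.082 to 0.105. Ndufa13 was intermediate in cHF+PC and cHF+R livers (0.01 and -0.03), between cHF+PC+R (-0.12) and cHF (0.14).

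The cHF+R livers themselves were far from uniform in the other-tissue isoforms. Replicates 1 and 3 had the highest Cox7a1 (0.97 and 0.72) and the highest Cox8b (1.02 and 0.61), and replicate 6 the lowest of both (0.04 and -0.08). The same livers stood at the ends for Cidea, a lipid droplet protein of brown fat and fatty liver (2.96 and 2.83 against -4.66), and for Cfd, the adipocyte protein adipsin (2.95 and 2.00 against -1.26). After subtraction of the group means, Pearson's r was 0.63 for Cox7a1 with Cidea (29 livers) and 0.16 for Cox7a1 with Cfd (28 livers); none is given for Cox8b, which was well above background on 12 arrays only. These values share an array and a loess curve per liver and are descriptive.

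Adipocyte and muscle markers were therefore read beside the isoforms. Of 5 white adipocyte markers 2 were tested, Retn and Cfd, and both were higher in cHF+R against cHF livers, Cfd by 4.51 (adjusted p = 0.00149) and Retn by 0.65 (adjusted p = 0.0456); Cfd was lower in cHF+PC+R against cHF+R livers (-3.01, adjusted p = 0.0267), in a fit with 7 of the 8 cHF+PC+R livers. Their summed ratio ran from 0.755 to 9.44 in cHF+PC+R, from 0.766 to 1.06 in cHF+PC, from 1.29 to 9.58 in cHF+R and from 0.787 to 1.14 in cHF livers. The defining markers Adipoq, Plin1 and Lep were well above background on 2, 2 and 0 of 29 arrays. Of 5 brown adipocyte markers 4 were tested, and Cpt1b was called higher in cHF+R against cHF livers (0.30, adjusted p = 0.0284) and in cHF+PC+R against cHF livers (0.28, adjusted p = 0.0141), and Elovl3 lower in cHF+PC against cHF livers (-1.16, adjusted p = 0.0339), while Ucp1 was above background on 1 array, a cHF one. The summed brown ratio ran from 2.45 to 5.38 in cHF+PC+R, from 2.26 to 3.61 in cHF+PC, from 3.25 to 11.01 in cHF+R and from 3.10 to 3.93 in cHF livers. It is the sum of Cidea, Elovl3, Ppara and Cpt1b. The liver itself expresses Ppara and Elovl3, so the sum is no measure of brown fat alone. In cHF+R livers the highest log2 ratio was 2.96 for Cidea, against 0.95 for Elovl3, 0.33 for Ppara and 0.32 for Cpt1b. Of 5 muscle markers only Mylpf was tested and it was not called in any comparison, with ratios of 0.858 to 1.07 in cHF+PC+R, 0.896 to 1.08 in cHF+PC, 1.02 to 1.36 in cHF+R and 0.837 to 1.06 in cHF livers; Ckm was on 0 arrays and Acta1, Tnnt3 and Myh4 on 1, 1 and 2. What part these markers' cells had in the isoform values was not tested.

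Of the 86 genes 22 had further probes, 28 in all. In cHF+PC+R against cHF these differed in sign from the probe used in 3 of 28 cases, in cHF+PC against cHF in 4, in cHF+PC+R against cHF+R in 6, in cHF+PC+R against cHF+PC in 6 and in cHF+R against cHF in 14. Most such differences were of small changes, but Ndufv3, a complex I subunit made in a short and a long form, disagreed past the threshold. Its brighter probe, at chr17:31668209-31668268 in mm9, was between -0.10 and 0.13 (median 0.03) in 7 cHF+PC+R livers and between 0.05 and 0.27 (median 0.15) in cHF livers, a change of -0.13 ± 0.039 (adjusted p = 0.0309).

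The other Ndufv3 probe, at chr17:31665148-31665207, was between -0.12 and 0.19 (median 0.11) in cHF+PC+R livers, between -0.13 and 0.31 (median 0.11) in cHF+PC livers, between -0.36 and -0.06 (median -0.16) in cHF+R livers and between -0.28 and -0.12 (median -0.15) in cHF livers. Both groups fed phospholipids lay mostly above both groups without them. Its change was 0.27 in cHF+PC against cHF (adjusted p = 0.00506 over all probes), 0.27 in cHF+PC+R against cHF (adjusted p = 0.00249) and 0.27 in cHF+PC+R against cHF+R (adjusted p = 0.00495). Averaging both probes turned the change in cHF+PC+R against cHF to 0.07 (adjusted p = 0.236), so Ndufv3 as a whole has no settled direction. The fall of the brighter probe was also lost without cHF replicate 3 or 7, or cHF+PC+R replicate 2 or 4 (-0.11 to -0.13, adjusted p = 0.0523 to 0.0815), without background subtraction and with the processed signals (-0.12 and -0.14, adjusted p = 0.0694 and 0.06). Of the other genes with several probes, Sdhc had a second probe higher in cHF+PC against cHF (0.14, adjusted p = 0.0447).

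**Figure D4:**
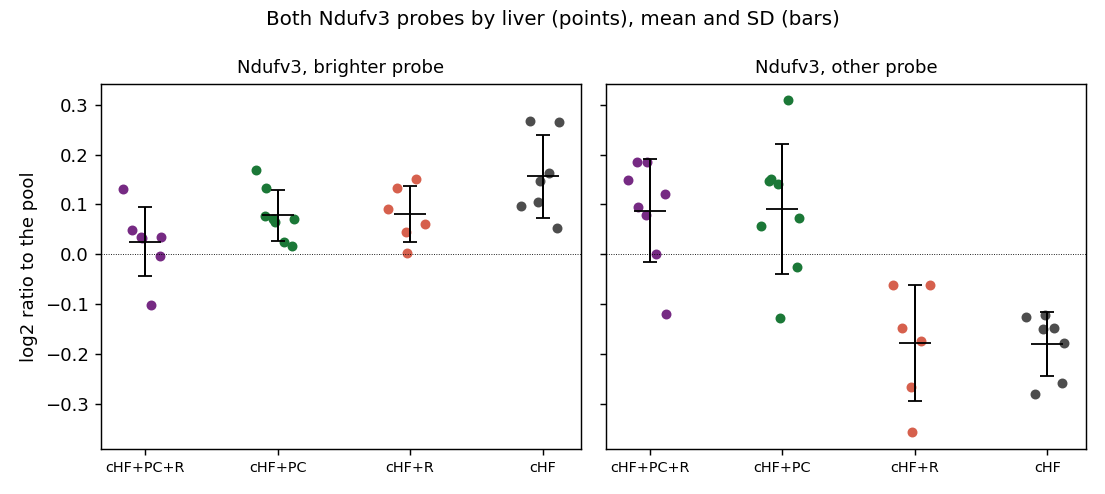
Log2 ratio to the pool of both Ndufv3 probes in each liver (points), with mean and SD (bars). The brighter probe is highest in cHF livers, with a median of 0.15, whereas the other probe is lowest in cHF+R and cHF livers, with medians of -0.16 and -0.15.

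Within the diet groups most pairs of these genes were positively correlated from liver to liver. Pairs of other genes were not measured, so this is not shown to be particular to the respiratory chain. After subtraction of the group means, the median Pearson r was 0.46 for pairs within complex I, with 538 of 561 pairs positive and 23 to 29 livers per pair. It was 0.48 within complex III, 0.54 within complex IV, 0.40 within ATP synthase and 0.44 between subunits of different complexes, over 18 to 29 livers per pair. The highest r was that of Cox8a with Ndufv2 (0.92, 27 livers), of complexes IV and I, followed by Uqcr10 with Uqcr11 (0.90, 29 livers), both of complex III. Against the median of the other genes Cox8a reached 0.92 and Ndufb8 0.91. At the other end were Cox6a2 (-0.45), the muscle form of its subunit, Cox6b2 (-0.19), Atp5s (-0.17) and Cox7a2l (-0.15), a factor of supercomplexes. The probes of Cox6a2, Cox6b2 and Atp5s were dim, with mean log2 intensities of 7.20, 7.73 and 7.90 against a median of 14.4 over the 86 genes. The Cox6a2 value also includes an outlying liver, cHF+PC replicate 2 (0.64). Bright genes share the end of each array's loess curve, and its part in these correlations was not tested.

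Over each liver the median of the 34 complex I subunits was between -0.15 and 0.10 in cHF+PC+R, between -0.07 and 0.09 in cHF+PC, between -0.08 and 0.18 in cHF+R and between -0.01 and 0.13 in cHF livers. All groups overlapped. The spread was widest in cHF+R livers for complex III (SD 0.117) and in cHF+PC+R livers for complex II (SD 0.140). For all 86 genes the lowest and highest cHF+R livers were replicate 6 (-0.07) and replicate 1 (0.17).

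**Figure D5:**
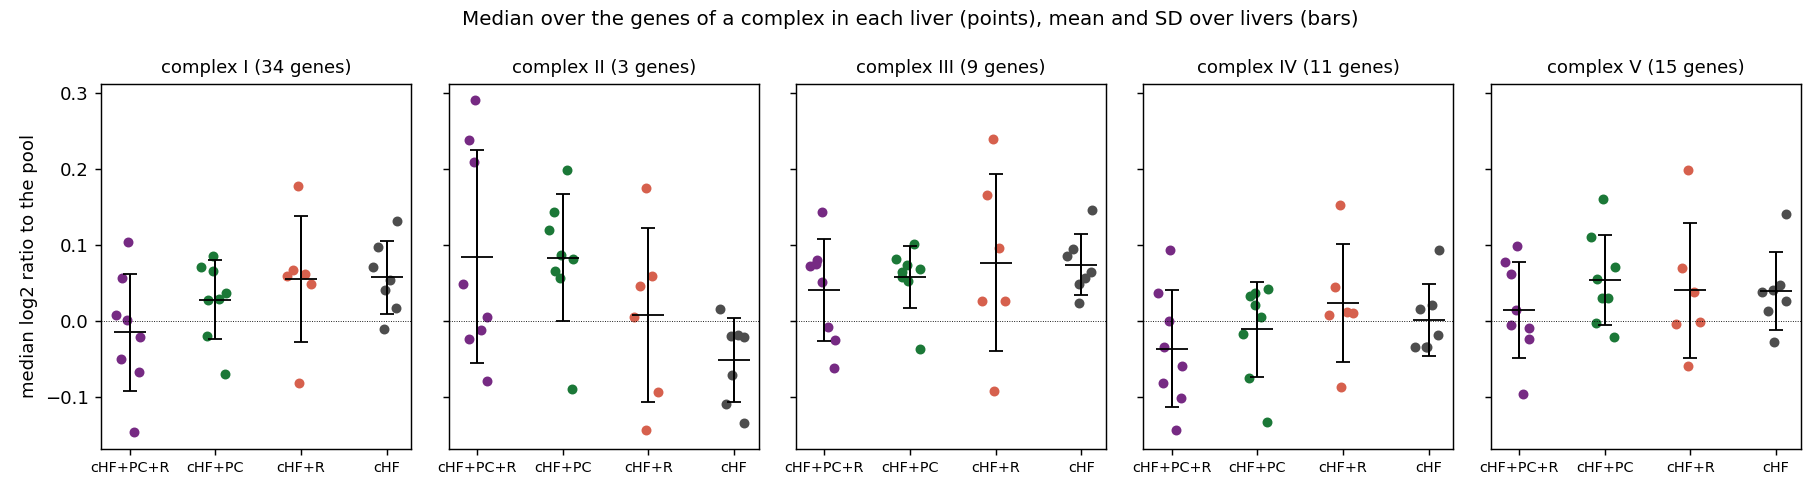
Median log2 ratio over the tested genes of complexes I to V in each liver (points), with mean and SD over livers (bars). All groups overlap in every complex, and the complex II medians of cHF livers lie between -0.13 and 0.02.

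The intervals that follow are those of the loess ratios and do not cover differences between normalizations. After median centring the median change of the 86 genes was 0.34 in cHF+R against cHF and -0.28 in cHF+PC+R against cHF+R. So the intervals do not bound what these arrays can miss. The median SE of a change was 0.050 to 0.056 in the 5 comparisons of groups. In cHF+PC against cHF the 95% interval lay within 0.5 of 0 for 85 of 86 genes and within 0.3 for 81; in cHF+R against cHF for 84 and 78; in cHF+PC+R against cHF for 86 and 75; and in cHF+PC+R against cHF+R for 83 and 78. The exceptions to 0.5 were Cox7a1, Cox8b and Ndufab1.

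The respiratory complexes also hold subunits encoded by mitochondrial DNA, measured by probes named ND1 to ND6, ND4L, CYTB, COX1 to COX3 and ATP8 in the files. None of these 12 was called by limma in any of the 6 comparisons, and their median changes lay between -0.04 and 0.05. At an unadjusted p below 0.05 there were 2 in cHF+PC against cHF, 2 in cHF+PC+R against cHF, 1 in cHF+PC+R against cHF+R and 0 elsewhere, where 18.5%, 24.5% and 22.3% of all genes in those 3 comparisons had such a p. The COX1 probe had the largest changes, 1.55 ± 0.61 in cHF+PC against cHF (adjusted p = 0.161) and 1.58 ± 0.59 in cHF+PC+R against cHF (adjusted p = 0.0909). Single slides carried much of both: the differences within slides ran from -0.22 to 5.27 (median 0.71) and from -0.11 to 5.28 (median 0.68).

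Among 17 regulators of mitochondrial biogenesis, Ppargc1b, the coactivator PGC-1 beta, was higher in cHF+PC against cHF livers (0.40 ± 0.113, adjusted p = 0.0435). Polg, the mitochondrial DNA polymerase, was higher there (0.23 ± 0.050, adjusted p = 0.00745) and in cHF+PC+R against cHF (0.27 ± 0.050, adjusted p = 0.000818). Tfb2m, a mitochondrial transcription factor, was higher in cHF+R against cHF (0.18 ± 0.047, adjusted p = 0.0294). None of the 17 was lower or called in the other comparisons.

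Of 17 electron carriers and dehydrogenases that feed the chain, Cycs, the cytochrome c that links complexes III and IV, was lower in cHF+PC+R against cHF+R livers. It lay between -0.43 and 0.06 (median -0.24) in 7 cHF+PC+R livers and between -0.14 and 0.52 (median 0.30) in cHF+R livers, with overlap, and its change was -0.48 ± 0.090 (adjusted p = 0.00135). Sqor, which passes electrons from sulfide to ubiquinone, was higher in that comparison (0.45 ± 0.107, adjusted p = 0.00927), as was Etfb, a subunit of the electron transfer flavoprotein (0.17 ± 0.042, adjusted p = 0.0163). Etfb was also higher in cHF+PC against cHF (0.16 ± 0.042, adjusted p = 0.0258; 6 cHF livers).

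Of 23 assembly factors of the complexes, Cox11, which delivers copper to complex IV, was lower in cHF+PC+R against cHF. It lay between -0.40 and -0.08 (median -0.20) in cHF+PC+R livers and between -0.02 and 0.21 (median 0.06) in cHF livers, without overlap, and its change was -0.29 ± 0.053 (adjusted p = 0.000659). Another complex IV factor, Sco2, was higher in cHF+PC+R against cHF+R (0.37 ± 0.097, adjusted p = 0.0188). Tmem126b of complex I was higher in cHF+PC against cHF (0.14 ± 0.040, adjusted p = 0.0369) and Tmem70 of ATP synthase in cHF+R against cHF (0.18 ± 0.042, adjusted p = 0.012).

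Some enzymes that supply NADH were called, and the calls below are of single genes. Of all genes, 9.51% were called in cHF+PC+R against cHF and 7.14% in cHF+PC+R against cHF+R. Of 16 TCA cycle and pyruvate dehydrogenase genes, Suclg2 was higher in cHF+PC+R against cHF (0.27 ± 0.069, adjusted p = 0.0116), and Pdhb, a subunit of pyruvate dehydrogenase, was lower in cHF+PC+R against cHF+R (-0.36 ± 0.104, adjusted p = 0.0308). Pdk4, a kinase that shuts off pyruvate dehydrogenase and a classic PPAR target, was lower in cHF+PC+R against cHF+R (-1.09 ± 0.274, adjusted p = 0.0141) and higher in cHF+R against cHF (1.06 ± 0.282, adjusted p = 0.0319). Its relative Pdk2 was higher in cHF+PC (0.28 ± 0.062, adjusted p = 0.00936) and in cHF+PC+R (0.20 ± 0.062, adjusted p = 0.0357) against cHF. None of 8 uncoupling proteins and nucleotide carriers was called by limma in any comparison, and between 0 and 2 had an unadjusted p below 0.05, as had 6.63% to 24.5% of all genes.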

How the data were processed

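Liver RNA of 29 mice was measured on 2-colour arrays, 1 array per liver. Per the labels' protocols, 1000 ng of RNA per liver was copied and split for both dyes; the Cy5 portion was set against a pool of the Cy3 portions, with no dye swap, and the design text states that 1 high-fat and 1 rosiglitazone array had been excluded. Each array's deposited file gives linear intensity values of every spot and of its local background, with log10 ratios, per the file headers; Agilent Feature Extraction 10.5.1.1 is named in the submitters' processing notes. Log2 values of 25806 probes (median 9.03) were deposited by the authors as well and were used as an alternative; how they were normalized is not stated in the labels. Probe positions are in mm9, per the file headers.

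Mean intensities were corrected with normexp (offset 50) and normalized within arrays by loess, with control spots left out of the curve. Spots with outlier marks took part in these steps and were set to missing afterwards. The tools were limma 3.58.1 in R 4.3.3 with the reader data.table, version 1.17.8. Kept were probes whose Cy5 signal was well above background on 6 or more arrays and that had 20 or more values, 23920 of 39429, and each gene took its brightest probe, giving 19454 genes. Names were matched to GRCm38.p6 by accession for 26412 probes, symbol for 3854 and synonym for 735, and 8428 kept the name in the file. A fit with 4 group means over all 29 arrays used lmFit and eBayes, two-sided, with Benjamini-Hochberg adjustment over all genes and a threshold of 0.05. Changes are log2 differences with SE. Slides were 8, each with at most 1 array of a group, all scanned on 1 day. The calculation was tested on simulated data. The number of arrays limits the precision.

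The genes and gene lists were chosen with earlier results of these data known. Named genes were, per comparison, up to 8 called rises and 8 called falls, the gene of each complex with the smallest p, fixed marker subunits and isoforms, and up to 2 called genes of each other list; Etfb in cHF+PC+R against cHF+R, Ndufaf2, Ndufc1, adipocyte and liver cell markers, single livers, second probes and correlations were picked after their values were seen. Alternatives were other background corrections, median centring, scaling between arrays, Cy5 alone, the deposited values, no filter, the mean of a gene's probes, slide and replicate blocks, and leaving out each array. The results of 1 gene outside the respiratory chain are not reported here.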

Additional observations from a re-analysis of the deposited data

Results flagged for a closer look

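In the 144 sets of livers (36 named genes in 4 groups) and 8 sets of array measures, 6 values lay apart from their group by Dixon's test, which chance gives in about 5% of sets. Sdhb, a subunit of complex II, was 0.33 in cHF+R replicate 1, where the other cHF+R livers lay between -0.07 and 0.08. That liver was also the highest of its group in Cox7a1 and Cox8b. Cox6a2 was 0.64 in cHF+PC replicate 2, against -0.18 to 0.01 in the other cHF+PC livers. Sdhc was 0.087 in cHF+PC replicate 6, against -0.14 to -0.05 in the others of that group. Cox6b2, called higher in cHF+PC+R against cHF livers, was -0.075 in cHF+PC+R replicate 2 and between 0.11 and 0.28 in the other livers of that group. Atp5e, the small epsilon subunit of ATP synthase, was 0.28 in cHF replicate 7, against 0.03 to 0.09 in the other cHF livers with a value. On the array of cHF replicate 4, 80.8% of spots were well above background, against 56.4% to 59.9% on the other cHF arrays.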

How the results depend on the processing

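Under 10 other settings, 49 of 60 counts of higher genes and 48 of 60 counts of lower genes stayed within 1.5 times the reported count. Counts that were 0 in every setting are among these, so the shares do not measure how well calls held. They are the higher genes in cHF+PC+R against cHF+R and the lower genes in cHF+R against cHF. Both counts were 0 throughout in cHF+PC+R against cHF+PC and in the interaction. Of the medians, 55 of 60 moved by less than the SD between livers (0.06). Median centring gave 0 higher and 0 lower genes in every comparison and medians of 0.34 in cHF+R against cHF, 0.059 in cHF+PC+R against cHF, -0.28 in cHF+PC+R against cHF+R, 0.075 in cHF+PC+R against cHF+PC and -0.26 in the interaction; the median over all genes moved to 0.15 in cHF+R against cHF, and 76 of its 81 calls were rises, against 394 of 607 with loess. Scaling between arrays left 1 higher and 0 lower gene in cHF+PC against cHF, the same in cHF+PC+R against cHF, and 0 lower in cHF+PC+R against cHF+R. Cy5 alone gave 0 and 0, 0 and 1, and 5 lower in these 3. In cHF+PC against cHF, 2 genes were lower without background subtraction and with the scanner's processed signals, and 1 was higher without the filter and with slides as a block. In cHF+PC+R against cHF, 2 were higher in the deposited values and 4 lower with slides as a block. The cause of these shifts was not tested. In cHF+PC+R against cHF the change reversed for Ndufa1 (0.016) and Ndufv3 (0.021) under median centring, for Ndufv3 with the mean of its probes (0.072) and for Cox4i1 with Cy5 alone (-0.0095). Of 1530 other values of named genes 63 lost and 3 gained their call. The 1530 include genes not called in that comparison, which had no call to lose. Of the 12 genes called in cHF+PC+R against cHF, 0 stayed called after median centring, 1 after scaling between arrays and 1 with Cy5 alone. With the other settings 8 to 11 of them did.

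With 1 array left out, the number of higher genes was 1 to 2 and of lower genes 1 to 2 in cHF+PC against cHF (median -0.02 to 0.01), 0 to 4 and 0 to 1 in cHF+R against cHF (-0.01 to 0.04), 2 to 5 and 3 to 11 in cHF+PC+R against cHF (-0.05 to -0.02), 0 to 1 and 3 to 8 in cHF+PC+R against cHF+R (-0.08 to -0.02), 0 and 0 in cHF+PC+R against cHF+PC (-0.05 to -0.02) and 0 and 0 in the interaction (-0.06 to -0.02). For cHF+PC against cHF, 1 higher gene was left without cHF replicate 3, 5 or 7, or cHF+PC replicate 3, 4, 5, 7 or 8, and 2 were lower without cHF replicate 1, cHF+R replicate 6, or cHF+PC replicate 1 or 6. For cHF+R against cHF, 4 were higher without cHF+R replicate 6, and 0 once any of cHF+R replicates 1 to 3 or of cHF replicates 3 and 5 was left out, and 1 was lower without cHF replicate 2, cHF+R replicate 1, or cHF+PC replicate 2 or 6. For cHF+PC+R against cHF, 3 were lower without cHF+PC+R replicate 4, 4 without cHF replicate 3 and 5 without cHF replicate 7, or cHF+PC+R replicate 2 or 3, and 2 were higher without cHF replicate 3. For cHF+PC+R against cHF+R, 8 were lower without cHF+R replicate 6, and 1 was higher without cHF+PC replicate 4, or cHF+PC+R replicate 2 or 6.

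Residuals of same-numbered livers of other groups correlated at -0.353 to 0.402 (median 0.018, 40 pairs). Those of differently numbered livers of other groups correlated at -0.320 to 0.583 (median -0.006, 274 pairs). On all cHF+PC and cHF+PC+R arrays, and on part of the others, the replicate number was also the slide number. The block for replicate numbers thus largely repeats that for slides, and whether the numbers pair livers in another way is not settled. With the replicate number as a block, 1 higher and 1 lower gene were called in cHF+PC against cHF, 1 and 0 in cHF+R against cHF, 4 and 8 in cHF+PC+R against cHF, 0 and 4 in cHF+PC+R against cHF+R, and 0 and 0 in the others. Dim spots limit Cox8b, and outlier marks on bright spots removed 3 genes.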
